A study of Homo sapiens with 24 samples.

Results

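Transcript levels of 31 genes of cholesterol and fatty acid synthesis were followed across 8 conditions of the PEO1 and PEO4 ovarian carcinoma cell lines. The genes were taken by name, as enzymes and regulators known to be driven by the sterol regulatory element-binding proteins (SREBPs), and not by any threshold on measured values. They are 31 of the 28277 genes in each of 2 count tables, and all 31 passed the filter on low counts in both. For the description they were split by role into 7 enzymes of the mevalonate pathway, 11 enzymes that make squalene and sterols from its product, 6 genes of SREBP regulation and sterol transport, and 7 genes of fatty acid synthesis.

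PEO1 and PEO4 were derived from the same patient, before and after resistance to chemotherapy arose, and each is a single line. Pair A holds untreated PEO1 without functional BRCA2, a DNA repair gene, which the sample labels call WT and the design text BRCA2-, beside untreated PEO4 (WT). Pair B holds PEO1 in which BRCA2 function was regained (genotype BRCA2+, written here as PEO1 BRCA+), again beside PEO4 (WT). The pair B lines were either left untreated or given 5 µM PDS (pyridostatin, a small molecule that binds G-quadruplexes, the stacked structures that guanine-rich DNA can fold into) for 2 h or 6 h. Each of the 8 groups had 3 biological replicates. All cells grew in medium with serum, and the addition of sodium pyruvate is described for pair A. Each pair has its own count table with its own PEO4 cultures, so no value of pair A was tested against a value of pair B.

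Cells make cholesterol from acetyl-CoA through mevalonate, farnesyl diphosphate and squalene, and fatty acids from the same acetyl-CoA through malonyl-CoA. When sterols run low in the endoplasmic reticulum, SCAP carries the SREBP precursors to the Golgi, where they are cut, and the freed factors enter the nucleus and bind sterol regulatory elements in the promoters of these genes. When sterols are plentiful, the INSIG proteins hold SCAP back. SREBF2 encodes the SREBP that mainly drives cholesterol genes and SREBF1 the isoforms that mainly drive fatty acid genes. INSIG1 and SREBF2 are themselves SREBP targets, and serum in the medium supplies lipoprotein cholesterol to cultured cells.

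Total counts ran from 32528913 to 63882077 per library in pair A, from 18699929 to 22375644 in the 6 untreated libraries of pair B, and from 33260167 to 43713947 in its 12 PDS libraries. Ribosomal RNA took 0.217 to 0.474% of counts in the untreated and 0.0164 to 0.0369% in the PDS libraries of pair B. Depth and ribosomal RNA therefore moved with treatment, and their part in a PDS difference cannot be told apart from that of PDS, while the comparisons of 6 h with 2 h lie within the PDS libraries. The 31 genes took 0.334 to 0.494% of counts in the untreated libraries of pair B, and the lowest share was in PEO4 replicate 2. The 9 epithelial carcinoma markers summed to 6546 to 6976 CPM (counts scaled to a common library size) in PEO1 and 4286 to 4638 CPM in PEO4 of pair A. In pair B they went from 9401 to 9556 CPM untreated to 12960 to 14070 CPM at 2 h and 11830 to 12800 CPM at 6 h in PEO1 BRCA+, and from 5905 to 7859 CPM to 5445 to 5792 CPM and 6886 to 7057 CPM in PEO4. KRT7, KRT8 and KRT18 carried most of each sum, and single markers differed in direction. In pair A the group means of PAX8, WT1, MUC16 and EPCAM were higher in PEO4, and those of the other markers lower. At 6 h in PEO1 BRCA+ EPCAM and these keratins were above untreated by group mean, and the others below. The sum of the 6 fibroblast markers separated the lines in both pairs, in opposite directions. It was 32.6 to 36.9 CPM in PEO1 and 8.38 to 13.4 CPM in PEO4 of pair A. In pair B it was 5.14 to 7.19 CPM in untreated PEO1 BRCA+ and 36.3 to 38.6 CPM in untreated PEO4. After PDS it was 9.24 to 13.3 CPM at 2 h and 3.70 to 4.91 CPM at 6 h in PEO4, and 2.73 to 3.66 CPM in PEO1 BRCA+. COL1A1 was the largest of these markers in each untreated group, and some others ran against the sum. By group mean COL1A2 was at 0.175 CPM in PEO1 and 2.69 CPM in PEO4 of pair A. PDGFRB was at 0.278 CPM in untreated PEO1 BRCA+ and 0.152 CPM in untreated PEO4 of pair B. The 3 adipocyte markers summed to 1.71 to 6.58 CPM in untreated PEO4 of pair B and to at most 1.0 CPM in the other groups. In untreated PEO4 of pair B, FABP4 (mean 4.29 CPM) carried most of that sum and ADIPOQ was at 0 CPM. The 3 endothelial markers summed to at most 2.72 CPM. Among the blood cell markers CD3E had 0 counts in every library, PTPRC and HBB were at most 0.0418 CPM, and CD68 made up nearly all of the sum. The 4 blood cell markers summed to 22.8 to 29.0 CPM in PEO1 and 29.8 to 52.8 CPM in PEO4 of pair A, and in pair B to 33.6 to 35.9 CPM untreated and 40.01 to 43.7 CPM after PDS in PEO1 BRCA+ and to 32.2 to 54.5 CPM and 67.3 to 78.2 CPM in PEO4. The part of these markers in the results was not tested. In bulk RNA, fewer cells of a type and less RNA per cell cannot be told apart.

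Promoter sequence is shown for SREBF2, STARD4, TM7SF2 and INSIG1 as examples, because PDS binds G-quadruplexes and SREBPs bind sterol regulatory elements. RefSeq promoters on GRCh38.p14, each running from 250 bases before to 50 bases after the transcription start, were at hand for 27 of the 31 genes, the exceptions being ACAT2, FASN, FDFT1 and SQLE. The classical sterol regulatory element SRE-1 was searched on both strands as an exact sequence. It was in 1 of the 27, the promoter of SREBF2, and in 0.0456% of all 35116 promoters. A shorter core with a free base was also in 1 of the 27, again SREBF2, and in 1.13% of all. Elements that differ from these letters were not searched for, so the counts do not show that the remaining promoters lack one. The SRE-1 match stands in capitals in the next line, at chr22:41832931-41833020 on the plus strand, 174 to 85 bases before the start.

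SREBF2: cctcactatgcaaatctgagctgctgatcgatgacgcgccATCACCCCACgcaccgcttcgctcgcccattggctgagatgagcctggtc

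A G-quadruplex motif, taken as 4 runs of at least 3 guanines with loops of 1 to 7 bases on either strand, was in 12 of the 27 promoters (MVK, LSS, CYP51A1, TM7SF2, DHCR7, SREBF2, SCAP, INSIG1, STARD4, ACLY, ACACA and FADS1) and in 25% of all promoters. It is in capitals below for SREBF2 (chr22:41833019-41833104, plus strand), STARD4 (chr5:111512536-111512662, minus strand, where both strands hold runs), TM7SF2 (chr11:65111681-65111784, plus strand) and INSIG1 (chr7:155297704-155297804, plus strand). The genes shown were picked from those with the motif. HMGCS1, HSD17B7 and SREBF1, whose responses to 6 h of PDS differed between the lines (below), had no match.

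SREBF2: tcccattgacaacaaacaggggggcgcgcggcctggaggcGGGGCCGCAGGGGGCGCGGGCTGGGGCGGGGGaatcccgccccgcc
STARD4: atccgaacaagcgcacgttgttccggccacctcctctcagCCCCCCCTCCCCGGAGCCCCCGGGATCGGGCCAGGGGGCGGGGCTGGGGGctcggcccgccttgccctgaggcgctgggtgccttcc
TM7SF2: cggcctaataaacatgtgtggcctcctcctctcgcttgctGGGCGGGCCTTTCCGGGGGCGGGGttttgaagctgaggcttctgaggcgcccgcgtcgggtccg
INSIG1: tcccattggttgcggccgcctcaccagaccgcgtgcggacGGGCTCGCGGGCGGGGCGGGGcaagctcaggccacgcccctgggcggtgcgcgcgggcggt

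Boxes for 2 factors that act beside SREBPs were more frequent. The NF-Y box CCAAT, which stands next to the sterol regulatory element in many sterol genes, was in 17 of the 27 promoters against 34.6% of all, and the Sp1 box GGGCGG was in 25 against 45%. Sp1 boxes overlap the guanine runs above. A match to such letters describes the sequence and is no evidence of binding or of a folded structure. The 12 genes with a G-quadruplex motif had median log2 fold changes after 6 h of PDS of 0.09 in PEO1 BRCA+ and 0.01 in PEO4, and the 15 without it 0.56 and 0.07, which is a description without a test.

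Levels of the 31 genes spread widely in untreated PEO1 BRCA+ when expressed as CPM per kilobase of exon, the only scale on which genes are compared here. FASN, the synthase that assembles palmitate, was highest at 188 ± 17.0 CPM per kilobase (SD, n = 3), ahead of ACLY, which cuts citrate to give cytosolic acetyl-CoA, at 143 ± 1.88. DHCR7 (84.1 ± 4.68), FDPS (79.4 ± 1.26) and SCD (68.1 ± 11.8) followed on this per-kilobase scale. The lowest were ACACA, which makes malonyl-CoA, at 0.418 ± 0.0468 CPM per kilobase, and LSS, the lanosterol synthase, at 1.61 ± 0.116. FASN was likewise highest and ACACA lowest in untreated PEO4 of pair B, at 172 ± 24.9 and 0.279 ± 0.0365 CPM per kilobase.

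The first question was whether untreated PEO4 differs from PEO1 in these genes. In pair A most of the cholesterol genes were lower in PEO4. A gene is said to be called where the quasi-likelihood test of edgeR gave a p under 0.05 after Benjamini-Hochberg adjustment across every gene tested and the log2 fold change exceeded 1 in size, and to have passed the test where the adjusted p alone was under 0.05. By the first rule 9 of the 31 were lower in PEO4 (13.1% of all genes tested) and 0 were higher (12.6%). By adjusted p alone 18 were lower (31.6% of all genes) and 7 higher (30.1%), or 4 higher without PEO1 replicate 3. The median log2 fold change of the 31 was -0.69, against -0.01 for all genes tested, and for 24 of the 31 the libraries of PEO4 and PEO1 did not overlap (67.9% of all genes).

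Among the mevalonate enzymes, IDI1, the isopentenyl diphosphate isomerase (chr10:1039152-1056704, minus strand), stood at 148, 127 and 136 CPM in PEO1 of pair A and at 50.5, 51.2 and 50.6 CPM in PEO4. All 3 PEO4 libraries lay far below the PEO1 libraries, a fall of 1.43 on the log2 scale (SE 0.0762, edgeR adjusted p = 8.383e-09). MVD, the mevalonate diphosphate decarboxylase, was at 32.6, 31.7 and 30.6 CPM in PEO1 and at 13.4, 13.4 and 17.3 CPM in PEO4, with no overlap (log2 fold change -1.11, SE 0.114, edgeR adjusted p = 2.943e-06). ACAT2, the cytosolic thiolase that begins the pathway, had a log2 fold change of -1.13 (SE 0.117, edgeR adjusted p = 3.241e-06). HMGCS1, the HMG-CoA synthase, and MVK, the mevalonate kinase, were lower by 0.77 and 0.85 on the log2 scale without reaching the fold limit. FDPS, the farnesyl diphosphate synthase, was the exception of this group at 0.31 higher, and the phosphomevalonate kinase PMVK did not pass the test (log2 fold change -0.05).

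Of the 11 squalene and sterol enzymes, 9 were lower and 2 higher in PEO4 of pair A by adjusted p. MSMO1, the methylsterol monooxygenase, was at 64.7, 53.0 and 52.9 CPM in PEO1 and at 21.1, 27.3 and 22.6 CPM in PEO4. The groups lay well apart (log2 fold change -1.27, SE 0.116, edgeR adjusted p = 1.156e-06). SC5D, a sterol desaturase near the end of the route, and HSD17B7, a sterol ketone reductase, were also called, at -1.08 and -1.02. The 2 that were higher were TM7SF2, a sterol reductase that acts after CYP51A1 (log2 fold change 0.71), and LSS (0.48). The call of HSD17B7 was lost without PEO1 replicate 1 or PEO4 replicate 2 of pair A, and that of ACLY, below, without PEO4 replicate 3.

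The regulators split by gene. SREBF2 (chr22:41833105-41907305, plus strand) was at 274, 250 and 234 CPM in PEO1 of pair A and at 111, 96.1 and 107 CPM in PEO4, while SREBF1 (chr17:17811334-17836986, minus strand) was at 74.5, 78.8 and 71.7 CPM in PEO1 and at 135, 128 and 128 CPM in PEO4. The 2 SREBP genes thus lay in opposite directions without overlap, SREBF2 lower by 1.27 (SE 0.0845, edgeR adjusted p = 6.036e-08) and SREBF1 higher by 0.79 on the log2 scale (SE 0.0702, edgeR adjusted p = 7.788e-07). INSIG1, which encodes a protein that retains SCAP, was at 129, 101 and 101 CPM in PEO1 and at 42.4, 42.7 and 44.2 CPM in PEO4 (log2 fold change -1.35, SE 0.0982, edgeR adjusted p = 1.418e-07). Its relative INSIG2 and the sterol carrier STARD4 did not pass the test, and SCAP was 0.18 higher. That difference of SCAP did not pass without PEO1 replicate 1, 2 or 3 or without PEO4 replicate 2 or 3. In the fatty acid group ACLY was lower at -1.05 (SE 0.0887, edgeR adjusted p = 5.34e-07), and FADS2, which desaturates polyunsaturated fatty acids, at -0.55, whereas FASN was higher at 0.61 and SCD, which makes monounsaturated fatty acids, at 0.30. SCD did not pass without PEO1 replicate 2 or 3 or without PEO4 replicate 1.

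With PEO1 BRCA+ as the reference, in pair B, fewer of the genes reached the fold limit. With both limits 2 of the 31 were lower in PEO4 (12.6% of all genes) and 1 was higher (12.2%). By adjusted p alone 18 were lower (34.6% of all genes) and 5 higher (34%, or 7 genes without untreated replicate 2 of PEO4). The median log2 fold change was -0.35 against 0.00 for all genes. The libraries of the lines did not overlap for 23 of the 31 (68.5% of all genes).

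SREBF2 was again far lower in PEO4, at 73.5, 48.5 and 88.0 CPM against 193, 211 and 206 CPM in PEO1 BRCA+. Even the highest PEO4 library was under every PEO1 BRCA+ library, a fall of 1.54 on the log2 scale (SE 0.145, edgeR adjusted p = 2.259e-07). NSDHL, a sterol dehydrogenase that takes part in removing methyl groups, was at 28.6, 27.0 and 26.4 CPM in PEO4 and at 55.9, 57.8 and 61.5 CPM in PEO1 BRCA+ (log2 fold change -1.09, SE 0.062, edgeR adjusted p = 5.803e-14). TM7SF2 (chr11:65111872-65116230, plus strand) was at 130, 119 and 130 CPM in PEO4 and at 54.9, 62.1 and 57.5 CPM in PEO1 BRCA+. Its groups were widely separated in the opposite direction (log2 fold change 1.12, SE 0.0848, edgeR adjusted p = 5.332e-11). SREBF1 was 0.70 higher (SE 0.141, edgeR adjusted p = 0.0004565) and SCAP 0.84 higher (SE 0.0548, edgeR adjusted p = 9.763e-13). None of the 7 fatty acid genes passed the test as higher in PEO4, and ACLY, ACACA and the elongase ELOVL6 were lower, at -0.74, -0.59 and -0.30. ELOVL6 did not pass without untreated replicate 3 of PEO1 BRCA+ or untreated replicate 1 of PEO4. Without untreated replicate 2 of PEO4, FADS2 passed as higher (0.44, edgeR adjusted p = 0.01422).

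The pairs share no library. SREBF2 was the only gene called in both, against 7.68% of the 15396 genes tested in both tables that were called lower in both and 6.59% that were called higher in both. By adjusted p alone 15 of the 31 were lower in PEO4 in both pairs (21.7% of those genes) and 4, namely FDPS, TM7SF2, SREBF1 and SCAP, were higher in both (20.7%). LSS passed as higher in pair A and lower in pair B (2.64% of those genes) and HSD17B7 the other way (3.36%). In pair A, SCAP did not pass without PEO1 replicate 1, 2 or 3 or PEO4 replicate 2 or 3, and LSS did not pass without PEO1 replicate 3. LSS was 0.48 higher in PEO4 of pair A and 0.70 lower in that of pair B, and HSD17B7 was 1.02 lower in pair A and 0.65 higher in pair B. HSD17B7 has a near-identical pseudogene, HSD17B7P2, which drew 18 to 171 counts per library and was 0.77 higher in PEO4 of pair B, so its values are uncertain.

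**Figure D1:**
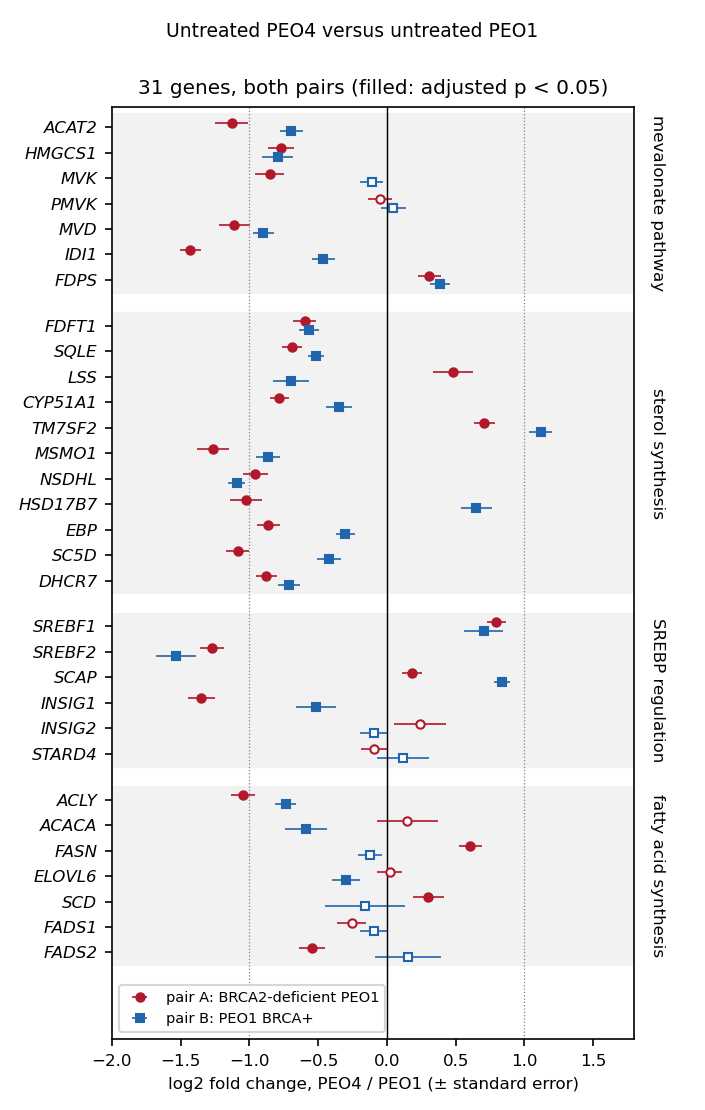
Log2 fold change of PEO4 over PEO1 in untreated cells for the 31 genes (rows, grouped by role), with its standard error, for pair A (red circles) and pair B (blue squares). Filled symbols passed the test and dotted lines mark a log2 fold change of 1 in either direction. SREBF2 lies to the left in both pairs (-1.27 and -1.54), TM7SF2 and SREBF1 to the right in both, and HSD17B7 on opposite sides.

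The next question was what PDS does to these genes in each line of pair B. In PEO1 BRCA+ most of the mevalonate and sterol genes rose within 2 h, by less than the fold limit. No gene passed both limits, with 0 of the 31 called as higher (1.18% of all genes) and 0 as lower (6.39%). By adjusted p alone 15 rose (26.4% of all genes) and 3 fell (26.2%), with a median log2 fold change of 0.16 against -0.03. The libraries of the 2 groups did not overlap for 20 of the 31 (61.8% of all genes). The rise lay in 6 of the 7 mevalonate enzymes and 8 of the 11 sterol enzymes, with INSIG1 beside them.

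At 6 h in PEO1 BRCA+ 1 gene was called as higher (1.29% of all genes) and 0 as lower (6.83%), while 17 rose (27% of all genes) and 3 fell (26%) by adjusted p alone. The median log2 fold change was 0.41 against -0.03 for all genes, and the libraries did not overlap for 25 of the 31 (61.8% of all genes). The gene called was HMGCS1 (chr5:43287470-43313412, minus strand). It was at 61.5, 62.6 and 55.4 CPM untreated, 103, 104 and 99.5 CPM at 2 h, and 135, 135 and 121 CPM at 6 h. Each group lay wholly above the one before it. HMGCS1 rose by 0.77 on the log2 scale at 2 h (SE 0.105, edgeR adjusted p = 7.135e-06) and by 1.12 at 6 h (SE 0.105, edgeR adjusted p = 7.696e-08).

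All 7 mevalonate enzymes had risen at 6 h in PEO1 BRCA+, from MVK at 0.54 to HMGCS1, and their summed level went from 378 ± 4.46 CPM untreated through 578 ± 26.3 CPM at 2 h to 649 ± 40.01 CPM at 6 h (SD, n = 3). IDI1 was at 67.6, 62.5 and 59.0 CPM untreated and at 124, 122 and 114 CPM at 6 h, so that every treated library lay above every untreated one (log2 fold change 0.93, SE 0.0814, edgeR adjusted p = 2.491e-09). The 11 sterol enzymes summed to 770 ± 18.04, 897 ± 11.0 and 1012 ± 48.4 CPM at the 3 times. The sterol isomerase EBP (0.68), the demethylase CYP51A1 (0.65) and the squalene synthase FDFT1 (0.64) had the largest log2 fold changes of this group at 6 h. TM7SF2 fell by 0.27 (edgeR adjusted p = 0.01181), a change that did not pass without untreated replicate 2 or 6 h replicate 3, and LSS and DHCR7, the last reductase of the route, did not pass the test.

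Among the regulators in PEO1 BRCA+, INSIG1 (chr7:155297878-155310235, plus strand) went from 57.9, 60.9 and 54.6 CPM to 95.4, 88.6 and 90.8 CPM at 2 h and 93.7, 96.9 and 80.6 CPM at 6 h. Both treated groups were above all untreated libraries and overlapped each other. Its log2 fold change was 0.66 at 2 h (SE 0.14, edgeR adjusted p = 0.00105) and 0.65 at 6 h (SE 0.14, edgeR adjusted p = 0.001289). STARD4 rose by 0.60 at 6 h (SE 0.179, edgeR adjusted p = 0.01062). The transcripts of the SREBP genes did not pass the test at 6 h, with log2 fold changes of 0.25 for SREBF2 (edgeR adjusted p = 0.1499) and -0.31 for SREBF1 (edgeR adjusted p = 0.07967).

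No fatty acid gene rose in PEO1 BRCA+ at either time. ACACA was at 4.17, 4.67 and 3.73 CPM untreated, 2.30, 2.33 and 2.36 CPM at 2 h and 2.66, 2.33 and 2.64 CPM at 6 h, with all treated libraries below the untreated (log2 fold changes -0.85 and -0.72, edgeR adjusted p = 4.211e-05 and 0.0002445). ELOVL6, which lengthens palmitate, was at 27.0, 28.5 and 29.7 CPM untreated and at 17.2, 17.2 and 15.4 CPM at 6 h (log2 fold change -0.77, SE 0.103, edgeR adjusted p = 1.133e-06). The 7 genes of this group summed to 2786 ± 150 CPM untreated and 2678 ± 92.3 CPM at 6 h.

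In PEO4 at 2 h, 6 of the 7 mevalonate enzymes and 7 of the 11 sterol enzymes rose by adjusted p alone, while MVK, LSS, DHCR7 and HSD17B7 did not pass the test and TM7SF2 fell. By the first rule 1 gene was called as higher (6.4% of all genes) and 1 as lower (11%), and by adjusted p alone 17 rose (33.3% of all genes) and 5 fell (32%). The median log2 fold change was 0.29 against 0 for all genes, and 21 of the 31 did not overlap (64.2% of all genes). INSIG1 was at 43.9, 27.4 and 49.6 CPM untreated and at 85.3, 83.6 and 85.7 CPM at 2 h. The treated libraries were close together and above all untreated ones, of which replicate 2 was lowest. The log2 fold change was 1.07 (SE 0.143, edgeR adjusted p = 1.061e-05), and 0.86 without untreated replicate 2 of PEO4 (edgeR adjusted p = 8.445e-11), which put INSIG1 under the fold limit and left 0 genes called as higher. TM7SF2 fell from 130, 119 and 130 CPM to 58.9, 71.6 and 58.3 CPM (log2 fold change -1.01, SE 0.0831, edgeR adjusted p = 4.252e-10), close to the fold limit, so that leaving out any of 4 libraries (untreated replicates 1 and 3, 2 h replicates 1 and 3) ended its call. FDFT1 rose by 0.83 (SE 0.0735, edgeR adjusted p = 4.745e-10) and SCD by 0.87 (SE 0.289, edgeR adjusted p = 0.01861), or by 0.56 without untreated replicate 2 of PEO4 (edgeR adjusted p = 0.03641) and by 1.31 without untreated replicate 3, and it did not pass without untreated replicate 1 or 2 h replicate 1. Without untreated replicate 2 of PEO4 the changes of FDPS and MSMO1 at 2 h went from 0.27 and 0.29 to 0.18 each, and MSMO1 did not pass the test (edgeR adjusted p = 0.05799).

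At 6 h in PEO4 the picture was mixed. Of the 31, 1 gene was called as higher (6.26% of all genes) and 4 as lower (16.3%). By adjusted p alone 12 rose (34.6% of all genes) and 9 fell (35.2%), with a median log2 fold change of 0.07 against -0.03, and 22 of the 31 did not overlap (72.2% of all genes). The mevalonate enzymes summed to 327 ± 34.9 CPM untreated, 452 ± 22.6 CPM at 2 h and 403 ± 2.51 CPM at 6 h, and the sterol enzymes to 605 ± 61.5, 727 ± 19.4 and 628 ± 21.1 CPM.

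The largest fall in PEO4 at 6 h was that of TM7SF2, to 30.6, 33.3 and 37.4 CPM from 130, 119 and 130 CPM untreated. The groups did not come near each other (log2 fold change -1.91, SE 0.0863, edgeR adjusted p = 1.195e-14). TM7SF2 overlaps VPS51 on the same strand, and VPS51 went from 197 ± 7.25 CPM to 150 ± 2.96 CPM in the same comparison (log2 fold change -0.39), so a share of reads assigned to either is uncertain. STARD4 (chr5:111496033-111512535, minus strand) was at 17.8, 9.09 and 20.3 CPM untreated and at 4.87, 5.52 and 6.02 CPM at 6 h. Every treated library was below the lowest untreated one, replicate 2 (log2 fold change -1.54, SE 0.199, edgeR adjusted p = 3.855e-06). Its antisense neighbour STARD4-AS1 was 1.67 lower in the same comparison, and without a stated strand setting the reads of the 2 genes cannot be told apart where they overlap.

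SREBF1 fell in PEO4 from 197, 161 and 245 CPM untreated through 128, 124 and 126 CPM at 2 h to 67.7, 72.2 and 78.5 CPM at 6 h. The 3 groups were ordered without overlap (log2 fold change at 6 h -1.46, SE 0.143, edgeR adjusted p = 3.363e-07). SREBF2 was at 73.5, 48.5 and 88.0 CPM untreated, 98.3, 98.6 and 91.6 CPM at 2 h and 39.6, 39.1 and 44.9 CPM at 6 h. Thus SREBF2 was highest at 2 h, where it was 0.46 above untreated (SE 0.143, edgeR adjusted p = 0.01194), and lowest at 6 h, 0.77 below untreated (SE 0.147, edgeR adjusted p = 0.0002959). Without untreated replicate 2 of PEO4 the 2 h difference of SREBF2 was 0.25 (edgeR adjusted p = 0.003845). Its antisense neighbour SREBF2-AS1 was 0.41 lower at 2 h and 1.09 lower at 6 h. SCAP was 0.39 lower at 2 h and 0.28 lower at 6 h. INSIG1, at 48.8, 46.8 and 51.5 CPM at 6 h, overlapped the untreated libraries and did not pass the test (edgeR adjusted p = 0.09978).

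ACAT2 was the gene called as higher in PEO4 at 6 h, from 47.8, 46.1 and 37.8 CPM untreated through 67.3, 60.3 and 80.5 CPM to 90.5, 89.4 and 83.5 CPM. Each group was above the one before it (log2 fold change at 6 h 1.0, SE 0.0848, edgeR adjusted p = 4.156e-10). As this sits on the fold limit, its call was lost without untreated replicate 3 or without 6 h replicate 1 or 2, which leaves 0 called as higher. FADS2 was at 78.9, 43.0 and 112 CPM untreated and at 34.7, 39.9 and 42.3 CPM at 6 h, just clear of untreated replicate 2. Its log2 fold change of -1.0 (SE 0.246, edgeR adjusted p = 0.002636) also sits on the limit, and the call was lost without untreated replicate 1 or 3 or without 6 h replicate 1, the smallest of these changes being -0.65. FADS2 overlaps FEN1 on the same strand and FADS1 on the opposite one, and ACAT2 overlaps TCP1 and SOD2 on the opposite strand. Reads are uncertain where these genes overlap. In the sterol group NSDHL rose by 0.59 at 6 h and HSD17B7 fell by 0.63, while HMGCS1 and FDFT1, both raised at 2 h, stood at 0.07 and 0.06 and did not pass the test.

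**Figure D2:**
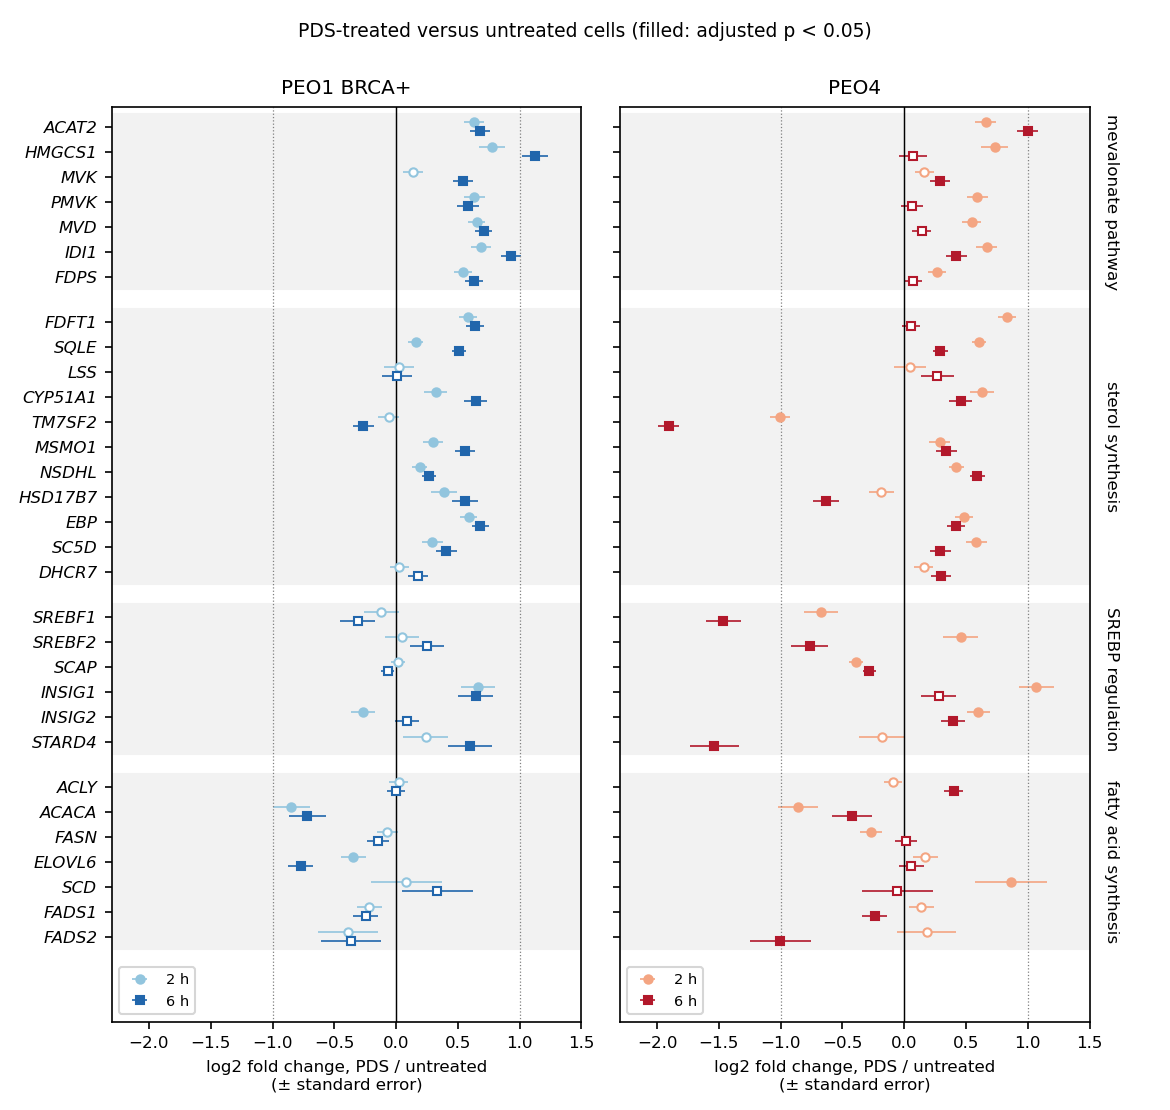
Log2 fold change of PDS-treated over untreated cells, with its standard error, for the 31 genes in PEO1 BRCA+ (left) and PEO4 (right) at 2 h (light circles) and 6 h (dark squares). Filled symbols passed the test and dotted lines mark a log2 fold change of 1 in either direction. In PEO1 BRCA+ most mevalonate and sterol genes lie right of 0 at both times, and in PEO4 the 6 h points of TM7SF2 (-1.91), STARD4 (-1.54) and SREBF1 (-1.46) lie far to the left.

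Library scaling bears on the PDS counts. Scaling factors of the trimmed mean of M-values ran from 1.055 to 1.091 in the untreated libraries of pair B and from 0.954 to 0.992 in its PDS libraries. With library totals in place of the trimmed mean of M-values, the median of all genes moved to -0.17 at both times in PEO1 BRCA+ and to -0.13 and -0.19 in PEO4, and the medians of the 31 genes to 0.01, 0.26, 0.16 and -0.09. The genes that rose and fell by adjusted p alone were then 9 and 7 at 2 h and 16 and 7 at 6 h in PEO1 BRCA+, and 14 and 7 at 2 h and 8 and 9 at 6 h in PEO4. No gene was then called as higher at 6 h in PEO1 BRCA+ or at either time in PEO4. Measured from the median of all genes, the median of the 31 under this scaling was 0.18 and 0.43 higher at 2 h and 6 h in PEO1 BRCA+ and 0.28 and 0.10 higher in PEO4. Upper-quartile scaling gave 17 genes that rose and 7 that fell at 6 h in PEO1 BRCA+.

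Comparing 6 h with 2 h uses PDS libraries of like depth and asks how the response went on. In PEO1 BRCA+ 0 genes were called in either direction (0.0705% of all genes higher and 0.0999% lower), and 6 were higher (3.96% of all genes) and 1 lower (2.98%) at 6 h by adjusted p alone. For 14 of the 31 the libraries did not overlap (31.3% of all genes). The 6 were MVK (0.40), HMGCS1 (0.35), SQLE, the squalene epoxidase (0.35), CYP51A1 (0.32), MSMO1 (0.26) and INSIG2 (0.35), and the 1 lower was ELOVL6 (-0.42). SQLE, as an example, was at 173, 171 and 168 CPM at 2 h and at 221, 217 and 216 CPM at 6 h, without overlap (edgeR adjusted p = 0.0004716). Leaving out single libraries moved the count of 6 down to as few as 2. None of the 15 genes that rose at 2 h was lower again at 6 h by this test (4.25% of all genes that rose at 2 h), 4 rose further (2.38%) and 11 did not pass it. The comparisons share the 2 h libraries.

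In PEO4 many of the genes were lower at 6 h than at 2 h. Of the 31, 3 were called as lower (9.71% of all genes) and 0 as higher (2.27%), and by adjusted p alone 18 were lower (31.3% of all genes) and 5 higher (28.9%, or 2 genes without 2 h replicate 2), with a median log2 fold change of -0.25 against -0.02. For 26 of the 31 the libraries did not overlap (68% of all genes). The 3 were STARD4 (-1.35, SE 0.193, edgeR adjusted p = 1.753e-05), SREBF2 (-1.22, SE 0.144, edgeR adjusted p = 4.433e-06) and FADS2 (-1.18, SE 0.242, edgeR adjusted p = 0.0009317). Of the 17 genes that rose at 2 h, 12 were lower again at 6 h (41.8% of all genes that rose at 2 h, with the 2 h libraries again shared by both comparisons), namely HMGCS1, PMVK, MVD, IDI1, FDPS, FDFT1, SQLE, SC5D, SREBF2, INSIG1, INSIG2 and SCD. IDI1, FDPS, INSIG2 and SCD did not pass when certain single libraries were left out. ACAT2 and NSDHL rose further (26.1% of all genes that rose at 2 h), and CYP51A1, MSMO1 and EBP did not pass the test between the times.

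FDFT1 shows that course, at 54.3, 43.5 and 56.9 CPM untreated, 88.6, 94.0 and 93.3 CPM at 2 h and 52.4, 53.5 and 55.0 CPM at 6 h. The 2 h libraries stood clear of both other groups, which overlapped. SCD was at 307, 164 and 487 CPM untreated, 630, 500 and 618 CPM at 2 h and 270, 302 and 350 CPM at 6 h. Its untreated libraries were widely spread, with replicate 2 lowest. The fall of 0.92 from 2 h to 6 h (SE 0.289, edgeR adjusted p = 0.01451) is not measured against them. Its SE and p still draw on a spread pooled over all groups of pair B, the untreated included. TM7SF2 and SREBF1 fell at 2 h and fell further, whereas ACACA and FASN fell at 2 h and rose from 2 h to 6 h (0.44 and 0.29), both rises and the 2 h fall of FASN being lost to the test without 2 h replicate 2 of PEO4.

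**Figure D3:**
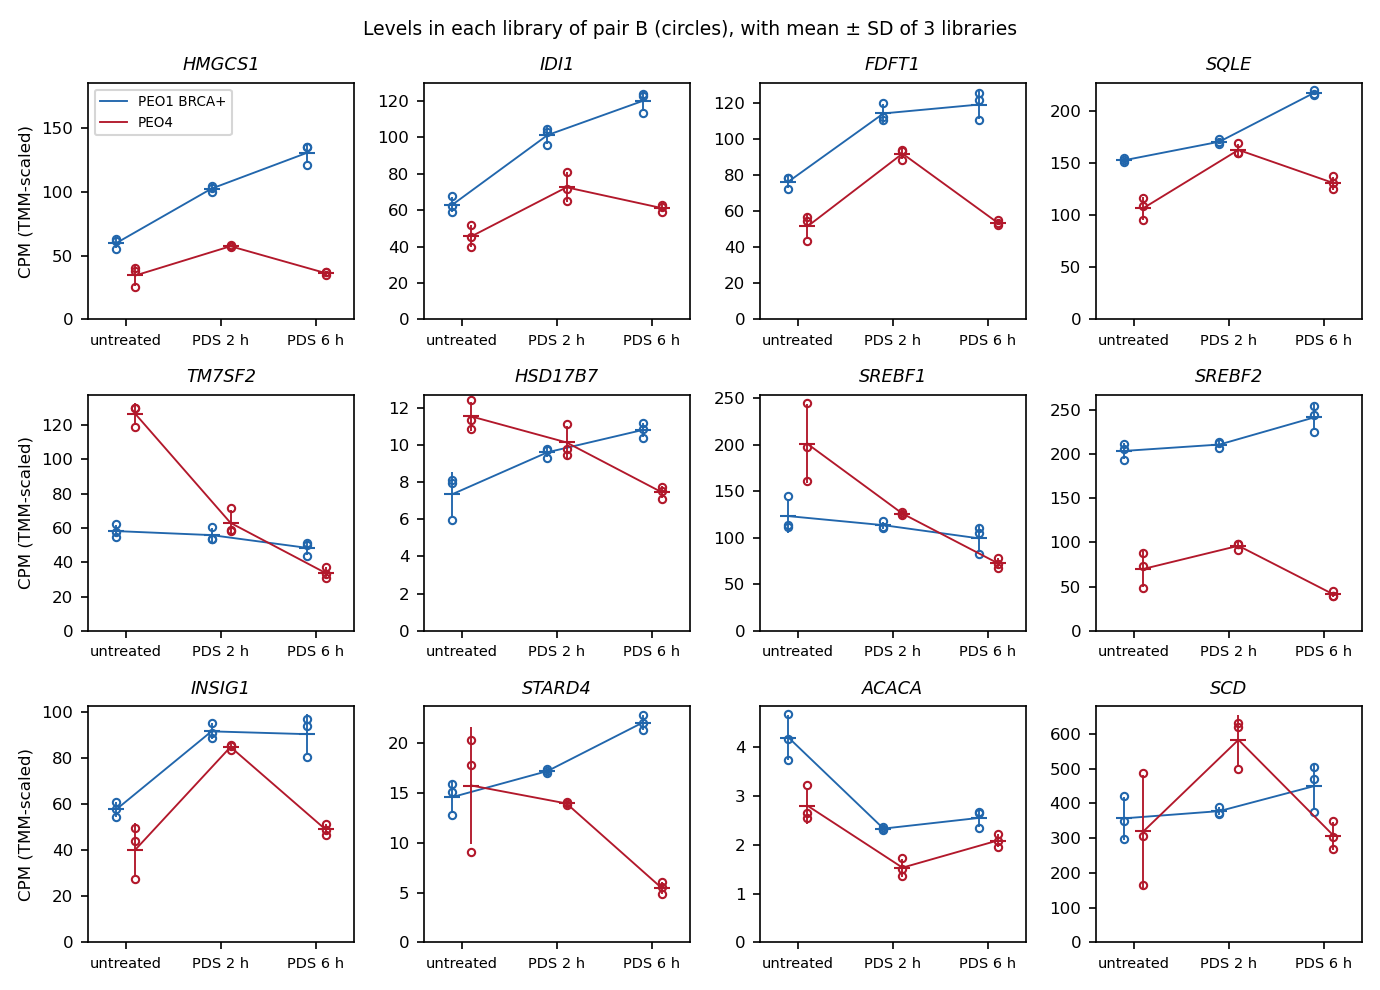
Levels of 12 of the genes in each library of pair B, in CPM scaled by the trimmed mean of M-values on linear axes that start at 0, for untreated cells and cells given PDS for 2 h and 6 h. Circles are libraries, horizontal marks and bars the mean and SD of 3 libraries, blue PEO1 BRCA+ and red PEO4. HMGCS1, IDI1 and SQLE climb in PEO1 BRCA+ but peak at 2 h in PEO4, and TM7SF2 and SREBF1 start higher in PEO4 and end below PEO1 BRCA+.

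The last question was whether the lines respond differently to PDS, tested as the response of PEO4 minus that of PEO1 BRCA+ in the same fit. At 2 h the differences of the mevalonate genes ran from -0.11 (MVD) to 0.03 (ACAT2 and MVK), apart from FDPS at -0.27, which passed the test with all libraries but not on leaving out any of 8 of them. By the first rule 0 of the 31 differed in either direction (6.1% of all genes higher and 4.92% lower). By adjusted p alone the difference was positive for 4 (19.3% of all genes) and negative for 5 (18%). INSIG2 had the largest positive difference, 0.87 (SE 0.136, edgeR adjusted p = 1.713e-05). It was at 9.83, 10.3 and 8.57 CPM untreated and at 14.3, 14.9 and 14.3 CPM at 2 h in PEO4, but at 11.3, 10.7 and 8.61 CPM and then 8.34, 8.79 and 8.26 CPM in PEO1 BRCA+. It thus went up in all PEO4 libraries and was at the lower end in those of PEO1 BRCA+. TM7SF2 had the largest negative difference, -0.94 (SE 0.118, edgeR adjusted p = 1.409e-06). Without untreated replicate 3 of PEO4 the count of 4 went to 11, and the count of 5 lay between 3 and 8 on leaving out single libraries, with 8 without untreated replicate 2 of PEO4.

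At 6 h the responses parted. By the first rule 6 of the 31 had a lower response in PEO4 (9.34% of all genes) and 0 a higher one (5.42%), and by adjusted p alone 14 were lower (23% of all genes) and 4 higher (24.4%), with a median difference of -0.25 against 0.01 for all genes. STARD4 differed most, at -2.13 (SE 0.268, edgeR adjusted p = 9.138e-06). It went from 15.9, 15.04 and 12.8 CPM to 22.8, 21.3 and 22.0 CPM in PEO1 BRCA+ and, as given above, to at most 6.02 CPM in PEO4. It rose in the former line and fell in the latter. STARD4-AS1 had a difference of -1.94 in the same test.

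TM7SF2 had a difference of -1.64 (SE 0.12, edgeR adjusted p = 3.281e-10), and its untreated level, higher in PEO4, had become the lower one at 6 h, where PEO1 BRCA+ was at 49.9, 51.4 and 43.9 CPM. The difference of VPS51 was -0.84. HSD17B7 (chr1:162790702-162812823, plus strand) was at 8.10, 7.97 and 5.97 CPM untreated and at 11.2, 10.4 and 10.9 CPM at 6 h in PEO1 BRCA+, and at 12.4, 10.9 and 11.3 CPM and then 7.11, 7.54 and 7.72 CPM in PEO4. The order of the lines was reversed, with a difference of -1.19 (SE 0.149, edgeR adjusted p = 5.869e-07). The pseudogene HSD17B7P2 did not pass this test (edgeR adjusted p = 0.3402).

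SREBF1 and SREBF2 had differences of -1.15 (SE 0.2, edgeR adjusted p = 0.0002733) and -1.01 (SE 0.201, edgeR adjusted p = 0.0008338). SREBF2 was at 254, 244 and 225 CPM at 6 h in PEO1 BRCA+, all above its untreated libraries, while in PEO4 all 3 were below them. HMGCS1 differed by -1.05 (SE 0.153, edgeR adjusted p = 2.084e-05), being at 36.8, 34.9 and 37.1 CPM at 6 h in PEO4, within the untreated range of 25.1 to 40.3 CPM. The call of SREBF2 was lost on leaving out any of 6 libraries, that of HMGCS1 without untreated replicate 3 of PEO1 BRCA+ or untreated replicate 1 or 3 of PEO4, and that of SREBF1 without untreated replicate 3 of PEO4, where the count of 6 became 3. Of the mevalonate enzymes 5 of 7 had a lower response in PEO4 by adjusted p, of the sterol enzymes 5 of 11, of the regulators 4 of 6 and of the fatty acid genes 0 of 7, beside the 23% of all genes given above. ELOVL6 (0.83) and ACLY (0.40) had a higher one, as did 24.4% of all genes. The lower responses of SQLE (-0.22), EBP (-0.26) and SCAP (-0.21) did not pass when certain single libraries were left out. The same held for the higher response of ACAT2 (0.32). Without untreated replicate 2 of PEO4, 19 genes had a lower response by adjusted p and 5 a higher one. With all libraries these counts were 14 and 4.

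**Figure D4:**
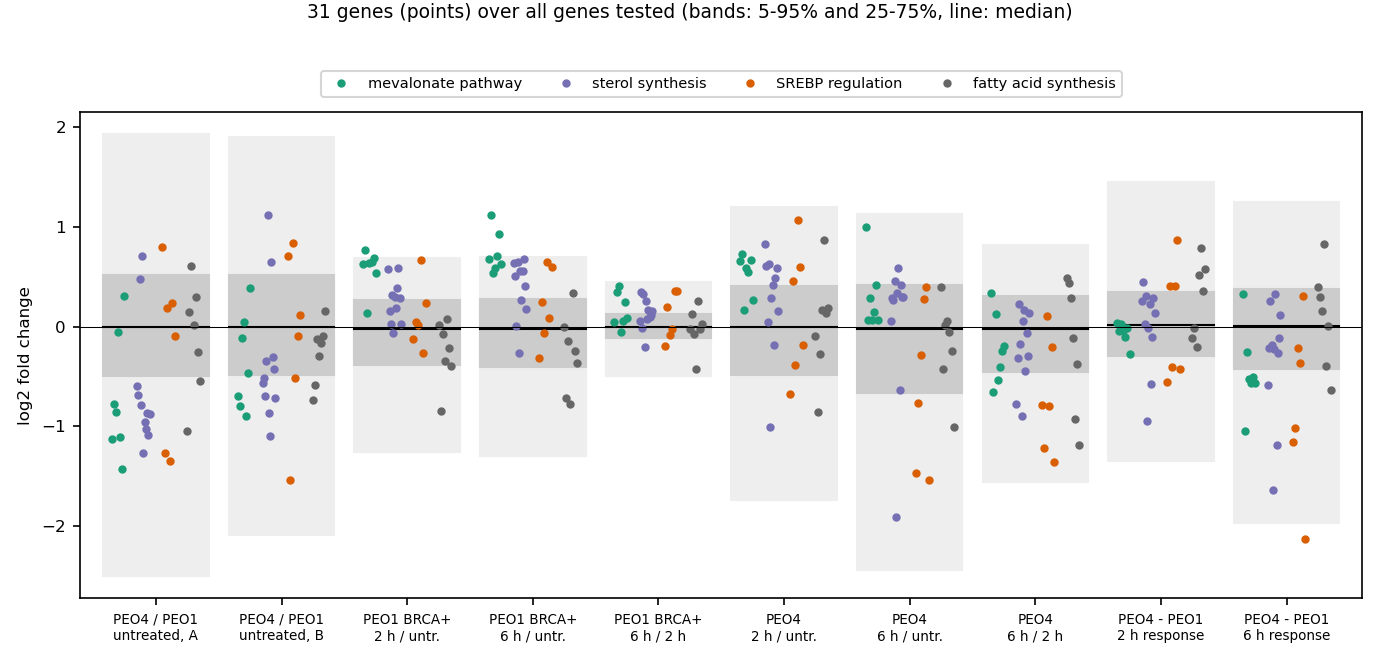
Log2 fold changes of the 31 genes (points, coloured by role) in the 10 comparisons, drawn over the spread of all genes tested (light band 5 to 95%, dark band 25 to 75%, line the median). The last 2 columns are differences between responses. Of the 7 mevalonate genes, 6 at 2 h and 7 at 6 h lie above the dark band in PEO1 BRCA+, 5 lie below it in the untreated comparison of pair A, and the 6 h differences of STARD4 (-2.13) and TM7SF2 (-1.64) are among the lowest points.

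Genes of the same routes outside the 31 were counted from lists that also cover neighbouring steps. Their counts by adjusted p stand beside 27% of all genes that rose and 26% that fell at 6 h in PEO1 BRCA+, and 34.6% and 35.2% in PEO4. Of 13 other sterol and isoprenoid enzymes, 7 rose and 0 fell in PEO1 BRCA+ at 6 h, and 7 rose and 3 fell in PEO4. Of 7 other genes of SREBP processing and sterol sensing, 1 rose and 2 fell in PEO1 BRCA+ and 3 rose and 3 fell in PEO4. Of 10 genes of sterol uptake, trafficking and esterification, 4 rose and 2 fell in PEO1 BRCA+ and 5 rose and 1 fell in PEO4. SCARB1, a receptor for high-density lipoprotein, fell by 1.59 on the log2 scale in PEO1 BRCA+ (edgeR adjusted p = 2.234e-11) and rose by 0.28 in PEO4 (edgeR adjusted p = 0.01209), a difference of 1.87 (edgeR adjusted p = 2.404e-10). Of 7 genes of the LXR sterol sensors and efflux, 1 rose and 2 fell in PEO1 BRCA+ and 1 rose and 4 fell in PEO4. Of 18 other fatty acid and glycerolipid genes, 8 rose and 5 fell in PEO1 BRCA+ and 6 rose and 7 fell in PEO4, where the carbohydrate-responsive factor gene MLXIPL (-3.44), the desaturase SCD5 (-3.06) and the acetyl-CoA synthetase ACSS2 (-2.24) fell and the elongase ELOVL5 rose (1.41).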

How the data were processed

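RNA-seq libraries of 24 samples, 3 biological replicates of each of 8 groups, were analysed from 2 tables of gene counts deposited by the authors, 1 of 6 libraries (pair A) and 1 of 18 (pair B). RNA was purified on columns with DNase I digestion, selected for polyadenylated transcripts and sequenced as paired ends. The submitters' processing notes name FastQC, fastp, STAR, featureCounts and the build hg38. Versions, the annotation and the strand setting of the counting are not given in the sources used here, so reads in overlapping genes are uncertain. The deposited counts are whole reads per gene, not normalized, and 2 lines of the first table and 1 of the second that lacked counts were dropped. Samples were grouped by their labels.

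Each table was fitted on its own with edgeR 4.0.16 in R 4.3.3 (quasi-likelihood test, robust, trimmed mean of M-values scaling), over all groups of the table. Genes were kept with filterByExpr at a minimum count of 10 and a minimum total of 15, which left 15882 and 17020 genes. Adjusted p-values (Benjamini-Hochberg) run over all genes kept, and a call needs an adjusted p under 0.05 and a log2 fold change over 1 in size. CPM values were computed here from scaled library sizes, and per-kilobase levels from the exons of GENCODE canonical transcripts. The smallest count of any of the 31 genes was 72 in pair A and 48 in pair B. The script was checked on simulated counts. Replicates came from 1 line per group. The p-values measure the spread between cultures within groups, pooled over all groups of a table, and do not extend to other lines. Named genes are the 31, plus genes of the other lists past both limits, and genes that overlap or resemble a named gene, which were added after the values were seen. The members and all lists were chosen with earlier results of these data known. Alternatives were DESeq2 1.42.0, other scalings, filters and limits, fits of the compared groups alone, a replicate term and leaving out each library. Some genes of these routes are not reported here.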

Additional observations from a re-analysis of the deposited data

Results flagged for a closer look

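The following 6 genes differed between the lines in their response to 6 h of PDS, by a test of the difference itself (response of PEO4 minus that of PEO1 BRCA+, quasi-likelihood test of edgeR, p-values adjusted across every gene tested, 3 libraries per group). The log2 difference was -2.13 for STARD4, -1.64 for TM7SF2, -1.19 for HSD17B7, -1.15 for SREBF1, -1.05 for HMGCS1 and -1.01 for SREBF2. STARD4 and HSD17B7 rose in PEO1 BRCA+ and fell in PEO4, TM7SF2 fell in both lines, HMGCS1 rose in PEO1 BRCA+ and did not pass the test in PEO4, and SREBF1 and SREBF2 fell in PEO4 and did not pass it in PEO1 BRCA+. The library depth of pair B and the fibroblast marker sum, given above, moved with treatment in both lines. The fibroblast sum went from 36.3 to 38.6 CPM untreated to 3.70 to 4.91 CPM at 6 h in PEO4. In PEO1 BRCA+ it went from 5.14 to 7.19 CPM to 2.73 to 3.66 CPM. The part of depth and of these markers in the differences was not tested.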

How the results depend on the processing

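Replicate numbers were not used to pair samples in the main fit. Deviations of same-numbered libraries from their group means correlated at -0.142 to 0.0937 in pair A (0 of 3 pairs over 0.1) and at -0.413 to 0.701 in pair B (12 of 45). For differently numbered libraries they correlated at -0.135 to 0.183 in pair A (1 of 6) and at -0.754 to 0.697 in pair B (29 of 90). A batch shared by some libraries was not tested. With a replicate block the counts of the 31 members stayed within 1.5 times in all 10 comparisons, and FADS2 at 6 h in PEO4 lost its call (-0.98). By adjusted p alone the members higher and lower in PEO4 were 7 and 18 in pair A and 5 and 18 in pair B, those higher and lower after PDS 15 and 3 at 2 h and 17 and 3 at 6 h in PEO1 BRCA+ and 17 and 5 and then 12 and 9 in PEO4, those between 6 h and 2 h 6 and 1 in PEO1 BRCA+ and 5 and 18 in PEO4, and the differences between responses 4 and 5 at 2 h and 4 and 14 at 6 h. With a fold limit of 0.5 on the log2 scale the members called higher and lower were 3 and 18 in pair A (22.3 and 22.4% of all genes), 4 and 13 in pair B (22.9 and 22.2%), 9 and 1 at 2 h (8.8 and 15.1%) and 15 and 2 at 6 h (9.45 and 15.5%) in PEO1 BRCA+, 12 and 3 at 2 h (18.1 and 21.1%) and 2 and 6 at 6 h (19.7 and 26.3%) in PEO4, 0 and 10 between 6 h and 2 h in PEO4 (11.7 and 19.2%), and 2 and 3 at 2 h (12.2 and 10.1%) and 1 and 11 at 6 h (13.7 and 16.3%) for the differences between responses. The DESeq2 Wald test, DESeq2 size factors, upper-quartile scaling, library totals, the stricter filter (1 CPM in at least 3 libraries) and a fit of the compared groups alone each left 0 members called higher at 6 h in PEO4, where ACAT2, at a log2 fold change of 0.84 to 0.98 in them, sits near the limit. FADS2 lost its call there also without a filter (-0.97) and with the compared groups alone (edgeR adjusted p = 0.0576), and HSD17B7 (-0.96) and ACLY (-0.99) lost theirs in pair A with upper-quartile scaling. Without a filter 0 members were called lower at 2 h in PEO4. Library totals left 0 called higher at 6 h in PEO1 BRCA+ and at 2 h in PEO4, gave 9 and 7 by adjusted p at 2 h and 7 lower at 6 h in PEO1 BRCA+, and turned SCAP at 2 h in that line to -0.13 (edgeR adjusted p = 0.036). At 6 h in PEO1 BRCA+ the members lower by adjusted p were 5 with DESeq2, 7 with upper-quartile scaling and 6 with the compared groups alone, which also gave 5 lower at 2 h and, between 6 h and 2 h, 10 higher and 2 lower. The cause of these shifts was not tested.

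Leaving out single libraries gave 0 to 1 members called in each direction for the 2 h difference between responses, and 3 to 11 higher and 3 to 8 lower by adjusted p. It gave 3 to 6 lower for the 6 h difference, 8 to 10 lower and 4 to 7 higher by adjusted p in pair A, 2 to 6 higher and 0 to 1 lower by adjusted p between 6 h and 2 h in PEO1 BRCA+, 0 to 2 higher and 0 to 1 lower at 2 h and 0 to 1 higher at 6 h in PEO4, and 2 to 6 higher by adjusted p between 6 h and 2 h in PEO4. At 72 and 48 counts for the lowest member, depth did not leave any member untested.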
